A study of Homo sapiens with 6 samples.

Results

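The genes described here are 33 genes of protein folding and quality control in the endoplasmic reticulum (ER), the compartment where secreted and membrane proteins are made. They are ER chaperones and their co-chaperones, disulfide isomerases, factors of ER-associated degradation (ERAD), and sensors and a transcription factor of the unfolded protein response (UPR). They were chosen by name, with earlier results of these data known. A TPM (a length-corrected share of the library's transcripts) of 1 or more in 2 or more libraries was required. All 33 passed, among 11151 genes that did so of 18806 in the table. Poly(A)+ RNA was sequenced from Mono-mac-6 cells, an established human line of monocytic acute myeloid leukemia with an MLL-AF9 fusion. A single Cas9-expressing clone was the parent of all libraries, and it received by lentivirus guide sgDDX6.1 or sgDDX6.2, both against the RNA helicase gene DDX6, or the control guide sgNS. Each of the 3 groups had 2 libraries. All were selected with blasticidin at 10 µg per ml and hygromycin B at 200 µg per ml for 1 to 2 weeks, and the labels give harvest on day 8 after infection. A selection of 2 weeks begun after this infection would run past day 8.

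Chaperones of the ER bind unfolded chains, disulfide isomerases pair their cysteines, and lectin chaperones hold glycoproteins until they fold. Chains that fail are passed back to the cytosol and degraded by ERAD. When unfolded protein builds up, the sensors IRE1 (gene ERN1), ATF6 and PERK are set free from the chaperone BiP (gene HSPA5). IRE1 splices XBP1 mRNA into the form that encodes an active transcription factor, cleaved ATF6 enters the nucleus, and both raise chaperone and ERAD genes, while PERK acts on translation and ATF4. Monocytic cells secrete lysozyme and make granule proteins, which pass through this machinery.

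DDX6 had 54.4 and 52.0 TPM with sgDDX6.1 and 52.3 and 53.5 TPM with sgDDX6.2, against 102 and 99.5 TPM in sgNS. The 4 sgDDX6 libraries lay below both sgNS libraries, with a log2 fold change of -0.91 (SE 0.04), and the mRNA that remained is no measure of DDX6 protein. Of the myeloid markers, LYZ was the most abundant, with 13819 to 14945 TPM in sgDDX6 libraries and 9531 and 10030.5 TPM in sgNS, whereas CD14 stood at 0.37 to 0.97 TPM in sgDDX6 and at 1.18 and 1.36 TPM in sgNS. Summed over 11 myeloid markers in the table, TPM was 14248 to 15478 in sgDDX6 and 9960.0 and 10449 in sgNS, and LYZ made up 96.2% to 97.2% of the sum in sgDDX6 and 95.7% and 96.0% in sgNS. Without LYZ the sums overlapped, at 416 to 567 TPM in sgDDX6 and 418 and 429 TPM in sgNS. In 4 of the 11 markers (LYZ, CSF1R, CD68 and CD4) all sgDDX6 libraries lay above sgNS and in 4 (CD14, FCGR1A, ITGAM and MPO) below, with MPO at 28.99 to 41.5 TPM in sgDDX6 and 79.7 and 86.7 TPM in sgNS. The T cell genes CD3D, CD3E, CD3G and CD2 were listed at 0 in all 6 libraries, and 4 plasma cell markers, of a cell type rich in ER, summed to 0.06 to 0.15 TPM in sgDDX6 and to 0.20 and 0.27 TPM in sgNS. The fifth T cell gene, CD8A, had 0.92 to 3.31 TPM in sgDDX6 and 3.39 and 3.54 TPM in sgNS. PECAM1, fixed as an endothelial marker and also known from monocytes, had 135 to 200.5 TPM in sgDDX6 and 64.6 and 66.9 TPM in sgNS, while CDH5 and KDR were listed at 0 throughout. The epithelial marker KRT18 had 10.8 to 18.8 TPM in sgDDX6 and 19.6 and 19.8 TPM in sgNS, with KRT19 and CDH1 listed at 0. Many of these markers moved with the groups, while others overlapped or were listed at 0. The part of the markers in the results below was not tested. In bulk RNA, fewer cells of a type and less RNA per cell cannot be told apart.

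Promoters of UPR genes carry known response elements, and 6 are shown because they hold such an element and their genes moved in different directions. The ER stress response element (ERSE) is bound by ATF6 and XBP1 together with NF-Y, the shorter ERSE-II by ATF6 and XBP1, the UPRE by spliced XBP1, and the C/EBP-ATF response element (CARE) by ATF4. Sequences are the 250 bases upstream of the RefSeq start site in GRCh38.p14, 5′ to 3′ on the gene's strand. Capitals mark the fixed letters of an element on either strand.

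CALR: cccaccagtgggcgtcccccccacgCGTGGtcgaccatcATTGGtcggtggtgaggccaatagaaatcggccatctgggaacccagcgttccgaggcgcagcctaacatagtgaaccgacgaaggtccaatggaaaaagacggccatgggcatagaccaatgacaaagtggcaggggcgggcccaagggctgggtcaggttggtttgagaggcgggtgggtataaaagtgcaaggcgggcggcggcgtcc

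CRELD2: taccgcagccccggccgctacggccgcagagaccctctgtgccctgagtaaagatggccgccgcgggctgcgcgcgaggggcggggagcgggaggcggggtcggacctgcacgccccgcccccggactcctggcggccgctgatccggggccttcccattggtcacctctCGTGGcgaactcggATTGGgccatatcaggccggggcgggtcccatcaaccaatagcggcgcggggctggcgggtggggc

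SDF2L1: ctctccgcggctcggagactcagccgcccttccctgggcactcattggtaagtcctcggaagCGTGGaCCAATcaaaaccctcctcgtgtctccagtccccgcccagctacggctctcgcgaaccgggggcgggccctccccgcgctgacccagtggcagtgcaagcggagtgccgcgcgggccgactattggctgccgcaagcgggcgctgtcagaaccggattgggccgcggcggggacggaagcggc

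HSPA5: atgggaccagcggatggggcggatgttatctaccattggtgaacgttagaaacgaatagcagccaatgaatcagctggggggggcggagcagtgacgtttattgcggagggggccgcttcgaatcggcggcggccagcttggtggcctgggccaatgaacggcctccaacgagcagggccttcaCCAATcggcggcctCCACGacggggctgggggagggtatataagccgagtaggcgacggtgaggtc

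XBP1: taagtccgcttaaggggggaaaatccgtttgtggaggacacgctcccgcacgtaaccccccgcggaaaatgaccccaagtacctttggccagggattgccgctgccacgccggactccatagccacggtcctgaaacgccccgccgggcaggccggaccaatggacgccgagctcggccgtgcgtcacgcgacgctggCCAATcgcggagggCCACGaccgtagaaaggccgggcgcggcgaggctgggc

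HERPUD1: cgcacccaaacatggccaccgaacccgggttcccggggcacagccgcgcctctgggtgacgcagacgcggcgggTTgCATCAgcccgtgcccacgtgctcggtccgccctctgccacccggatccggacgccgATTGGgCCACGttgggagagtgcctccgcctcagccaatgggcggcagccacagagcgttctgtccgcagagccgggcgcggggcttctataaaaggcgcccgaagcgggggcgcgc

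These windows lie at chr19:12938359-12938608 (CALR, plus strand), chr22:49918384-49918633 (CRELD2, plus), chr22:21642052-21642301 (SDF2L1, plus), chr9:125241344-125241593 (HSPA5, minus), chr22:28800570-28800819 (XBP1, minus) and chr16:56931892-56932141 (HERPUD1, plus). CALR, CRELD2, HSPA5 and XBP1 hold an ERSE, SDF2L1 an ERSE-II, and HERPUD1 an ERSE-II and a CARE. CALR, CRELD2, SDF2L1 and HSPA5 rose with DDX6 targeted, and XBP1 and HERPUD1 fell, as described next.

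With both guides averaged, the 33 genes moved in both directions at once. The genes CALR, CRELD2, SDF2L1, HSP90B1, PDIA4 and PDIA3, whose products work in the ER lumen, were higher with DDX6 targeted by 0.5 or more on the log2 scale. The IRE1 gene ERN1, its target XBP1, the ERAD genes HERPUD1, EDEM1 and SEL1L, the chaperone genes HSPA13 and CLGN and the co-chaperone gene DNAJB9 were lower by 0.5 or more. Folding genes of the lumen also fell, HSPA13 and DNAJB9 by 0.5 or more and DNAJC10, PDIA5 and HYOU1 by less. Of the 33 genes, 31 (93.9%) passed an adjusted p of 0.05 in limma, 17 higher and 14 lower, against 66.7% of all genes tested (33.8% higher and 32.9% lower). With a log2 fold change of 0.5 or more in size as well, 6 were higher (18.2%) and 8 lower (24.2%), against 7.96% and 9.43% of all genes. The share of all genes that passed the adjusted p varied with level, at 69.4% with a TPM filter of 5. No genes of like level were set beside the 33. The median fold change of the 33 was 0.11 on the log2 scale, against 0.0008 for all genes, and the median size was 0.36 against 0.23. In 27 of the 33 genes (81.8%) all 4 sgDDX6 libraries lay beyond both sgNS libraries, 14 above and 13 below, against 63.4% of all genes (31.5% above and 31.9% below). Whether replicate libraries stem from separate cultures is not stated in the labels, and p-values therefore speak of the spread among these 6 samples alone, which may be of technical origin.

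**Figure D1:**
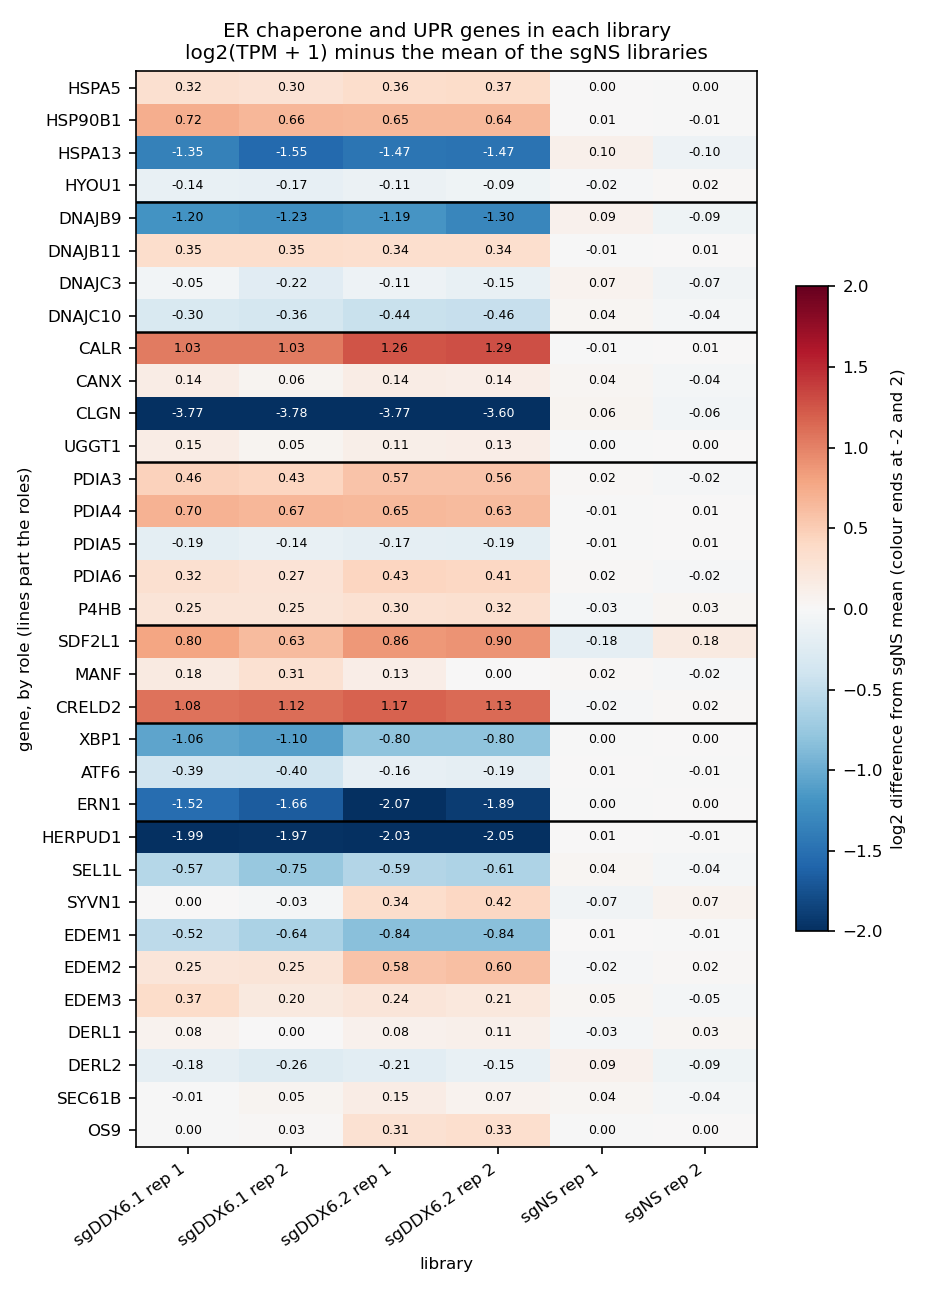
The 33 genes (rows, by role) in the 6 libraries (columns), as log2(TPM + 1) minus the mean of the sgNS libraries, with colours ending at -2 and 2. Rows of one role hold both red and blue: CALR (1.03 to 1.29) stands near CLGN (-3.78 to -3.60), and the replicates of a guide are alike.

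By level the group is dominated by abundant luminal proteins. The 33 genes together held 1.43% and 1.41% of the TPM with sgDDX6.1 and 1.52% and 1.53% with sgDDX6.2, against 1.12% and 1.13% in sgNS. P4HB and CALR had the highest TPM of the 33 in the sgDDX6 libraries and in sgNS. Without both, the sum was 6996, 6804, 7228 and 7181 TPM in the sgDDX6 libraries and 6319 and 6200.4 TPM in sgNS. The mean sum was 14685 TPM in sgDDX6 and 11253 TPM in sgNS with all 33 genes. Without P4HB and CALR it was 7053 and 6260 TPM. Most of the higher sum thus lay in P4HB and CALR, and a smaller part in the other genes. The 3 sensor and transcription factor genes went the other way, with sums of 292 to 351 TPM in sgDDX6 libraries and 597 and 599 TPM in sgNS.

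Among the HSP70 and HSP90 chaperones, HSP90B1 and HSPA5 rose and HSPA13 and HYOU1 fell. HSPA5 (BiP, the main HSP70 of the ER, chr9:125234853-125241330, minus strand, GRCh38) had 634 and 625 TPM with sgDDX6.1 and 653 and 657 TPM with sgDDX6.2, against 509.3 and 508.7 TPM in sgNS. The groups did not overlap, and the log2 fold change was 0.34 (SE 0.03, limma adjusted p = 9.53e-07), a TPM ratio of 1.26. HSP90B1 (GRP94, the HSP90 of the ER, chr12:103930107-103953645, plus strand) had 1016 and 977 TPM with sgDDX6.1 and 967 and 962 TPM with sgDDX6.2, against 619.7 and 613 TPM in sgNS. Its groups did not overlap either, with a log2 fold change of 0.67 (SE 0.03). HSPA13 (chr21:14371115-14383484, minus strand), a divergent HSP70 of microsomes, had 30.2 and 26.2 TPM and 27.9 and 27.8 TPM with the 2 guides, against 84.5 and 73.4 TPM in sgNS. All 4 sgDDX6 libraries were low, and the log2 fold change was -1.46 (SE 0.07, limma adjusted p = 5.40e-09). HYOU1, which exchanges nucleotide on BiP, had 259 ± 6.44 TPM in sgDDX6 (SD, n = 4) and 283 ± 6.1 TPM in sgNS (SD, n = 2).

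**Figure D2:**
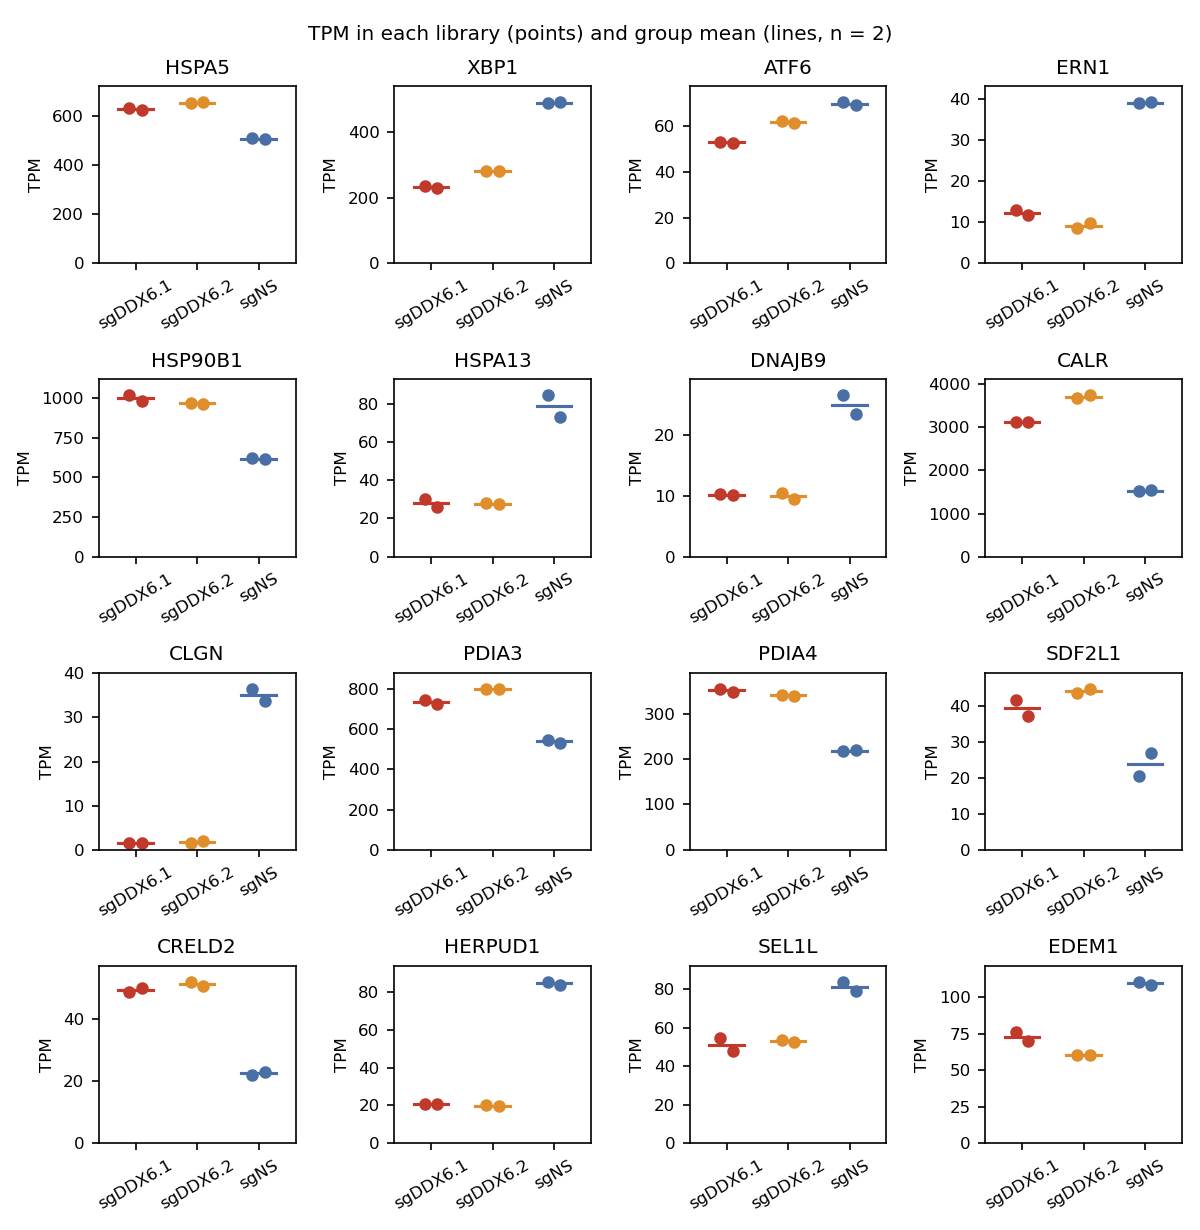
TPM in each library (points) and the group mean (lines, n = 2 libraries) for the 16 genes given in full, with each axis starting at 0. In all 16 panels the sgDDX6 points lie wholly above or wholly below the sgNS points.

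The co-chaperones of BiP, which carry a J domain that stirs its ATPase, were split as well. DNAJB9 (ERdj4, which returns BiP to IRE1, chr7:108569568-108574850, plus strand) had 10.3 and 10.1 TPM with sgDDX6.1 and 10.4 and 9.54 TPM with sgDDX6.2, against 26.5 and 23.5 TPM in sgNS. Its log2 fold change was -1.23 (SE 0.07, limma adjusted p = 2.49e-08), with no overlap of the groups. DNAJB11 (ERdj3), which feeds unfolded chains to BiP, rose by 0.35, with 311 ± 1.70 TPM in sgDDX6 and 244 ± 3.15 TPM in sgNS. DNAJC10 (ERdj5), a reductase that opens disulfide bonds before degradation, fell by 0.39, with 53.0 ± 2.86 and 69.7 ± 3.11 TPM. DNAJC3 (p58IPK), also an inhibitor of eIF2 kinases, had 114 ± 5.63 and 126 ± 8.79 TPM, and its groups overlapped.

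The lectin chaperones included CALR, which rose, and CLGN, which had the largest decrease of the 33 genes with each guide. CALR (calreticulin, the soluble lectin chaperone and a calcium store, chr19:12938578-12944489, plus strand) had 3128 and 3127 TPM with sgDDX6.1 and 3671 and 3742 TPM with sgDDX6.2, against 1512 and 1544 TPM in sgNS. Every sgDDX6 library was at more than double the TPM of either sgNS library, and the log2 fold change was 1.16 (SE 0.03, limma adjusted p = 1.08e-11). CLGN (calmegin, a membrane-bound relative of calnexin known from testis, chr4:140388455-140427968, minus strand) had 1.64 and 1.62 TPM and 1.65 and 1.98 TPM with the 2 guides, against 36.5 and 33.7 TPM in sgNS. All 4 sgDDX6 libraries were far below sgNS, with a TPM ratio of 0.0491 and a log2 fold change of -3.73 (SE 0.08, limma adjusted p = 5.71e-12). CANX (calnexin, the membrane-bound lectin chaperone) had 815 ± 22.7 TPM in sgDDX6 and 749 ± 28.4 TPM in sgNS, a log2 fold change of 0.12 that became -0.0360 under quantile normalization. UGGT1, which marks misfolded glycoproteins with glucose for another round, had 82.6 ± 2.34 and 76.5 ± 0.304 TPM. The 3 calnexin-family genes thus had log2 fold changes of 1.16 (CALR), 0.12 (CANX) and -3.73 (CLGN).

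Of 5 disulfide isomerases, 4 rose and PDIA5 fell. PDIA4 (ERp72, chr7:149003062-149028641, minus strand) had 355 and 348 TPM with sgDDX6.1 and 342 and 339 TPM with sgDDX6.2, against 217 and 219 TPM in sgNS. PDIA3 (ERp57, which works with CALR and CANX on glycoproteins, chr15:43746392-43773279, plus strand) had 744 and 725 TPM with sgDDX6.1 and 799.8 and 797 TPM with sgDDX6.2, against 547 and 531 TPM in sgNS. Neither gene's groups overlapped, and the log2 fold changes were 0.66 (SE 0.03) for PDIA4 and 0.51 (SE 0.03) for PDIA3. PDIA6, which also tunes IRE1, rose by 0.36 and P4HB, the classical isomerase and subunit of collagen prolyl hydroxylase, by 0.28. PDIA5 fell by 0.18, with 38.7 ± 0.626 TPM in sgDDX6 and 43.8 ± 0.516 TPM in sgNS.

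Among 3 small luminal or secreted UPR proteins, SDF2L1 and CRELD2 rose, with all 4 sgDDX6 libraries above sgNS. CRELD2 (a secreted protein with isomerase activity, chr22:49918167-49927540, plus strand) had 48.6 and 50.0 TPM with sgDDX6.1 and 51.9 and 50.5 TPM with sgDDX6.2, against 22.1 and 22.8 TPM in sgNS. Its log2 fold change was 1.13 (SE 0.05, limma adjusted p = 1.77e-09), and its TPM ratio of 2.24 was that of CALR to 3 digits. With sgDDX6.1 the log2 fold change of CRELD2 (1.1) was above that of CALR (1.03), and with sgDDX6.2 it was below (1.15 and 1.28). SDF2L1 (a partner of BiP and DNAJB11, chr22:21642261-21644298, plus strand) had 41.6 and 37.0 TPM with sgDDX6.1 and 43.6 and 44.7 TPM with sgDDX6.2, against 20.6 and 26.8 TPM in sgNS. The sgNS libraries were further apart than those of either guide, and the log2 fold change was 0.80 (SE 0.09). MANF, a neurotrophic factor that stabilizes BiP with its clients, had 125 ± 11.1 TPM in sgDDX6 and 112 ± 2.16 TPM in sgNS, with overlap.

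All 3 sensor and transcription factor genes fell. ERN1 (IRE1, the kinase and RNase sensor, chr17:64039142-64130819, minus strand) had 12.99 and 11.7 TPM with sgDDX6.1 and 8.58 and 9.80 TPM with sgDDX6.2, against 39.0 and 39.3 TPM in sgNS. XBP1 (the transcription factor whose mRNA IRE1 splices, chr22:28794555-28800597, minus strand) had 234 and 228 TPM with sgDDX6.1 and 279.7 and 279.5 TPM with sgDDX6.2, against 487 and 490.5 TPM in sgNS. The log2 fold change was -1.79 for ERN1 (SE 0.07, limma adjusted p = 9.40e-10) and -0.94 for XBP1 (SE 0.03, limma adjusted p = 2.86e-10), and neither gene's groups overlapped. ATF6 (the membrane-bound transcription factor, chr1:161766294-161964070, plus strand) had 53.2 and 52.8 TPM with sgDDX6.1 and 62.5 and 61.3 TPM with sgDDX6.2, against 70.6 and 69.2 TPM in sgNS. Its fall was smaller, with a log2 fold change of -0.28 (SE 0.04). The values are totals per gene, so spliced and unspliced XBP1 mRNA are not told apart, and mRNA is no measure of sensor activity.

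Over both guides, the ERAD factors, with the translocon subunit SEC61B, comprised 4 genes that rose, 4 that fell and 2 that did not pass the test. That is 40% higher and 40% lower, against 33.8% and 32.9% of all genes tested. With sgDDX6.1 alone 2 rose and 4 fell, as SYVN1 and OS9 passed the test with sgDDX6.2 and not with sgDDX6.1. HERPUD1 (a scaffold of the ERAD complex at the membrane, chr16:56932048-56944863, plus strand) had 20.5 and 20.8 TPM with sgDDX6.1 and 20.0 and 19.6 TPM with sgDDX6.2, against 85.4 and 83.7 TPM in sgNS. Its 4 sgDDX6 libraries were tightly grouped at a TPM ratio of 0.239, and the log2 fold change was -2.01 (SE 0.05, limma adjusted p = 1.18e-11). EDEM1 (a mannose-trimming factor that marks glycoproteins for ERAD, chr3:5187646-5219957, plus strand) had 76.0 and 70.0 TPM with sgDDX6.1 and 60.7 and 60.6 TPM with sgDDX6.2, against 110.4 and 108 TPM in sgNS. SEL1L (which holds the ubiquitin ligase SYVN1 in place, chr14:81471549-81533861, minus strand) had 54.4 and 47.7 TPM and 53.6 and 52.7 TPM with the 2 guides, against 83.7 and 78.7 TPM in sgNS. Both were lower in all 4 sgDDX6 libraries, with log2 fold changes of -0.71 (SE 0.04) for EDEM1 and -0.63 (SE 0.05) for SEL1L. The paralogs of EDEM1 moved the opposite way, with log2 fold changes of 0.42 for EDEM2 (59.9 ± 8.21 TPM in sgDDX6 and 44.3 ± 0.778 TPM in sgNS) and 0.25 for EDEM3 (143 ± 8.10 and 119.7 ± 5.37 TPM). OS9, a lectin that delivers chains to the ligase, rose by 0.17 over both guides, with groups that overlapped. SYVN1 (HRD1) had 82.1 ± 13.3 and 71.6 ± 4.65 TPM, with groups that overlapped, and DERL2 of the membrane channel 9.98 ± 0.357 and 11.6 ± 1.13 TPM. DERL1 (log2 fold change 0.07, SE 0.04) and SEC61B (0.07, SE 0.04) did not pass the test, with limma adjusted p of 0.177 and 0.161.

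Of the 31 calls, 24 held under all 14 alternative settings and 7 were lost in at least 1 of them, none of these larger than 0.20 in size. Without replicate 2 of sgNS, HYOU1 had a log2 fold change of -0.10 (limma adjusted p = 0.0602), CANX 0.08 (adjusted p = 0.122), UGGT1 0.11 (adjusted p = 0.0971) and MANF 0.14 (adjusted p = 0.0644). Without replicate 1 of sgNS, DNAJC3 had -0.06 (limma adjusted p = 0.395), SYVN1 0.12 (adjusted p = 0.0843), DERL2 -0.11 (adjusted p = 0.315) and UGGT1 0.11 (adjusted p = 0.125). Leaving out single sgDDX6 libraries also ended calls of UGGT1, DNAJC3, DERL2 and MANF: without sgDDX6.2 replicate 1, for instance, their log2 fold changes were 0.11, -0.14, -0.19 and 0.12 (limma adjusted p of 0.0752, 0.0537, 0.0646 and 0.0538). The same happened without sgDDX6.2 replicate 2 for UGGT1 and DNAJC3 (0.11 and -0.12), without sgDDX6.1 replicate 2 for DNAJC3 and DERL2 (-0.09 and -0.18), and without sgDDX6.1 replicate 1 for UGGT1 (0.09).

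Set against sgNS separately, the guides gave 14 higher and 13 lower genes with sgDDX6.1 (81.8% called, against 61.6% of all genes, 31.8% higher and 29.7% lower) and 16 higher and 12 lower with sgDDX6.2 (84.8%, against 64.2% of all genes, 31.5% higher and 32.7% lower). With a log2 fold change of 0.5 or more in size, 5 were higher and 8 lower with sgDDX6.1 (all genes 7.14% and 10.2%), and 7 were higher and 8 lower with sgDDX6.2 (all genes 10.4% and 10%). Both comparisons share the sgNS libraries. HERPUD1 had log2 fold changes of -1.98 with sgDDX6.1 and -2.04 with sgDDX6.2, CLGN -3.78 and -3.68, HSP90B1 0.69 and 0.65, and CRELD2 1.1 and 1.15. Between the guides themselves, 11 of the 33 genes (33.3%) differed, 8 higher and 3 lower with sgDDX6.2, against 35.6% of all genes (17% higher and 18.6% lower), so the share of these genes that parted the guides was near the background. None of these differences reached 0.5 on the log2 scale, as 4.11% (higher) and 0.52% (lower) of all genes did. SYVN1 had 91.1 and 96.0 TPM with sgDDX6.2 and 71.8 and 69.8 TPM with sgDDX6.1, and 68.3 and 74.9 TPM in sgNS. OS9 had 305 and 309.5 TPM with sgDDX6.2 and 245 and 251 TPM with sgDDX6.1, and 246 and 247 TPM in sgNS. In both ERAD genes the sgDDX6.1 values overlapped those of sgNS and the sgDDX6.2 values lay above them, and the guides differed by 0.40 and 0.31 (SE 0.05 and 0.04; limma adjusted p = 0.000288 and 0.000115). EDEM2 was higher with sgDDX6.2 than with sgDDX6.1 by 0.34 and CALR by 0.24, while ERN1 differed by -0.39 and EDEM1 by -0.26. XBP1 and ATF6 were higher with sgDDX6.2 than with sgDDX6.1, by 0.27 and 0.22, and below sgNS with both.

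**Figure D3:**
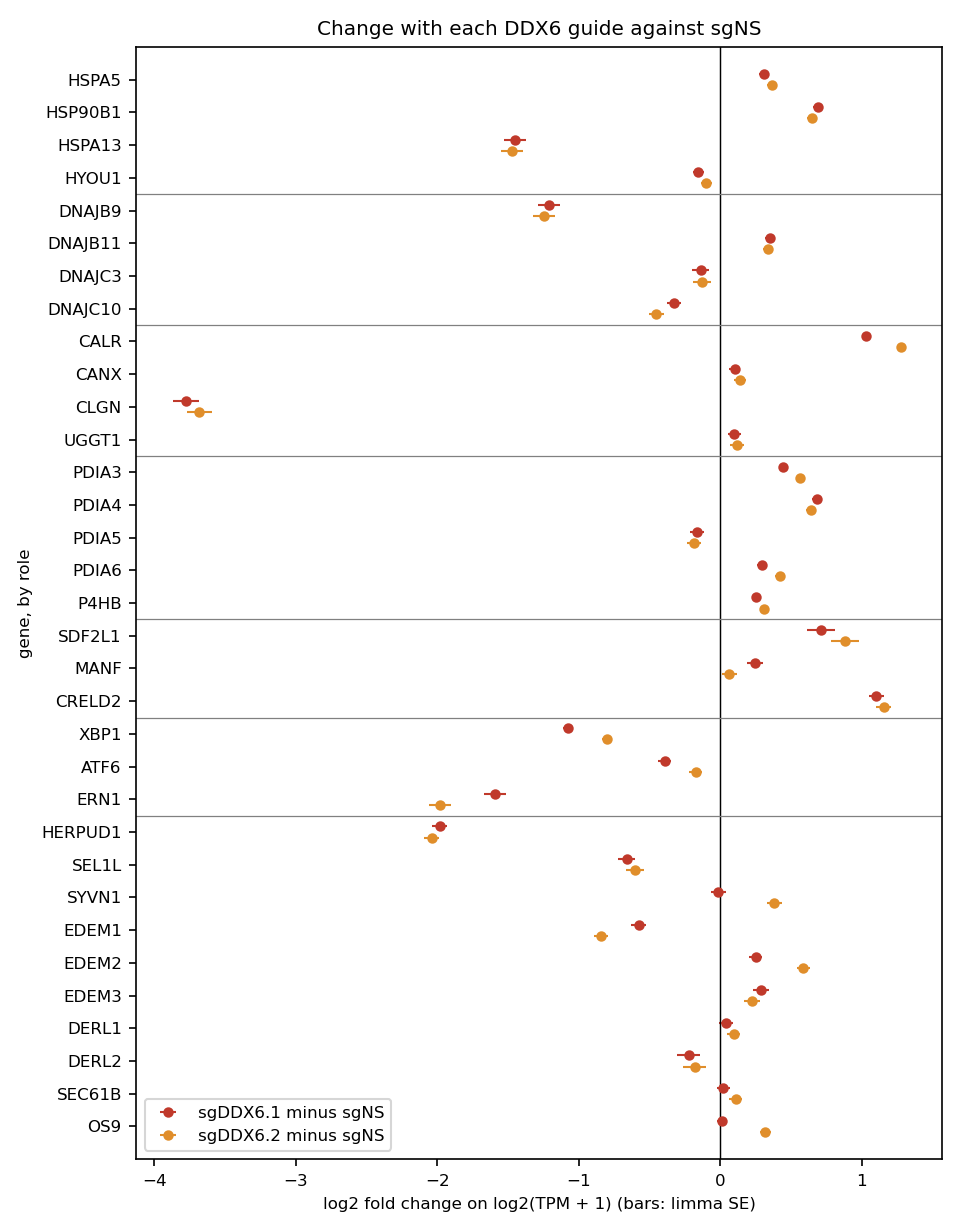
Log2 fold change on the log2(TPM + 1) scale with each guide against sgNS (x axis) for the 33 genes (y axis, lines part the roles), with bars of 1 SE from limma. The points of the 2 guides lie close for most genes; SYVN1 (-0.01 and 0.38) and OS9 (0.01 and 0.32) differed between the guides.

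The promoter elements were counted in windows of 300 bases, from 250 upstream to 50 downstream of a RefSeq start site, which were found for 31 of the 33 genes and for 8717 of the 11151 genes tested. Letters were searched on both strands. The ERSE, CCAAT and CCACG with 9 bases between, was present in 7 of the 31 genes, and in 0.184% of the tested genes with a window and 0.0769% of all 35116 windows. The tested genes include the 31, and promoters of UPR genes are known to carry the element, so these shares are a description only. Those 7 were HSPA5, HSP90B1, CALR, CANX, PDIA6, CRELD2 and XBP1. Of these, 6 passed the test upward, CANX with the sign change under quantile normalization given above, and XBP1 passed it downward. Of 9 tested genes outside the 33 with an ERSE, 2 rose, 5 fell and 2 did not pass the test. Over all genes tested, 33.8% passed upward and 32.9% downward. HSP90B1 held 2 ERSE sites, 194 and 89 bases upstream of the RefSeq start site at their first base. Both lie inside the GENCODE span of HSP90B1 given above, which begins further upstream. The ERSE-II, ATTGG and CCACG with 1 base between, was present in HYOU1 (at 2 sites), SDF2L1 and HERPUD1, and in 0.126% of tested genes with a window. Those 3 genes had log2 fold changes of -0.13, 0.80 and -2.01. The UPRE core TGACGTGG was present in HYOU1, where it overlaps an ERSE-II, and in DNAJC10, and in 1.14% of tested genes with a window. The related TGACGTGA (0.734%) and the cyclic AMP response element TGACGTCA (3.84%) were found in none of the 37 windows of these 31 genes. The CARE (TGATGNAA) was found in HERPUD1 only, against 2.63% of tested genes with a window. A match in letters is a description and does not show that a factor binds there.

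**Figure D4:**
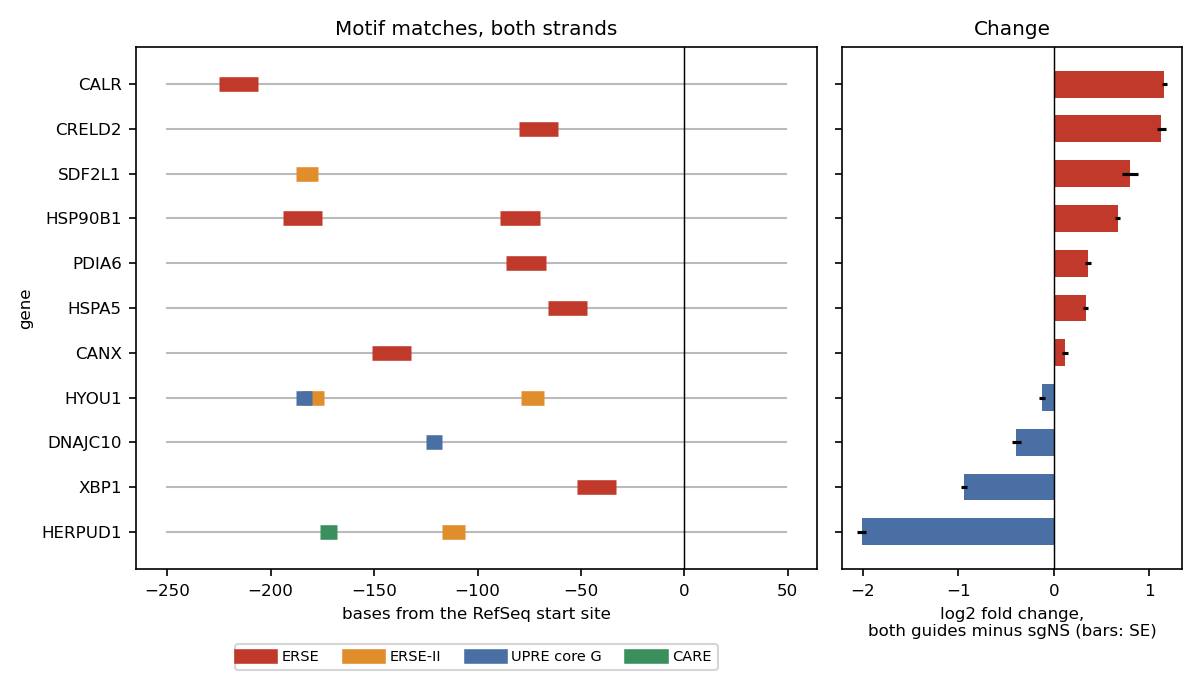
Positions of the matches from the RefSeq start site (left, in bases, upstream negative; for a gene with several start sites, from the first listed) for the 11 genes that hold one, and their log2 fold change over both guides with SE (right). Genes with an ERSE run from CALR at 1.16 to XBP1 at -0.94; CANX, at 0.12, had -0.0360 under quantile normalization.

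Other genes of the pathway were set beside the 33 as 8 lists of 227 tested genes, of which 85 (37.4%) passed the test upward and 74 (32.6%) downward (median log2 fold change 0.01). Over all genes tested these shares were 33.8% and 32.9%, so the companion genes as a whole were near the background. The list called the PERK branch holds the gene of PERK beside ATF4 and other stress genes. Like the other lists, it was chosen with earlier results of these data known. All 14 of its tested genes (100%) fell, with a median of -1.29. These mRNA values do not measure PERK activity, which was not tested. TRIB3, a pseudokinase induced by ATF4, had 34.7 ± 3.44 TPM in sgDDX6 (SD, n = 4) and 543 ± 23.2 TPM in sgNS (SD, n = 2). CHAC1 had 1.69 ± 0.263 and 75.1 ± 6.02 TPM, SESN2, a stress-induced inhibitor of mTORC1, 20.4 ± 1.03 and 183 ± 9.07 TPM, and the transcription factor CEBPB 24.2 ± 1.2 and 109 ± 4.0 TPM. The gene of the PERK kinase, EIF2AK3, fell by 0.34. Of 39 further folding enzymes, 16 rose (41.0%) and 14 fell (35.9%), with a median of 0.02. Among those that rose were the sulfhydryl oxidase QSOX1 (0.87), PPIC (0.77), ERP44, which retains folding enzymes (0.55), and the lectin MLEC (0.49). The list of 41 further ERAD factors had 15 up (36.6%) and 13 down (31.7%), with a median of -0.02. The ubiquitin ligase STUB1 (0.65), the extraction ATPase VCP (0.43) and AUP1 (0.40) were up and the rhomboid protease RHBDD1 (-1.12) down.

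Lists for entry into the ER and exit from it held more genes that rose than fell. Over all genes tested, 66.7% passed the test, 33.8% upward and 32.9% downward. Among 35 genes of the translocon, signal peptidase and oligosaccharyltransferase, 15 rose (42.9%) and 5 fell (14.3%), with a median of 0.02. The share that passed in either direction, 57.1%, was below that of all genes. OST4 (0.52), RPN1 (0.39) and TRAM2 (0.56) were up, and SEC63, whose J domain recruits BiP to the translocon, was at -0.56. In the list of 40 COPII, KDEL receptor and carrier genes, 19 rose (47.5%) and 8 fell (20%), with a median of 0.11. Those that rose included RRBP1 (0.64), SEC13 (0.55), SEC23B (0.41) and TMED9 (0.40). KDEL receptors return escaped luminal chaperones to the ER, and KDELR1, KDELR2 and KDELR3 had log2 fold changes of 0.29, 0.17 and 0.46 over both guides. KDELR1 rose by 0.49 with sgDDX6.2 and did not pass the test with sgDDX6.1 (0.09, limma adjusted p = 0.0836). KDELR3 was low, with a mean of 5.47 TPM in sgDDX6 and 3.67 TPM in sgNS. Of 29 other UPR regulators, 10 rose (34.5%) and 12 fell (41.4%), with a median of -0.07. CDK5RAP3 of the UFMylation pathway was at -1.04, CASP4 at -0.42, BAK1 at 0.56 and DDRGK1 at 0.51. Of 9 ER-phagy receptors, 4 rose (44.4%) and 2 fell (22.2%), with a median of 0.04. The 2 were RTN3 (-0.36) and CCPG1, which had 20.8 ± 1.55 TPM in sgDDX6 and 149 ± 3.20 TPM in sgNS, a log2 fold change of -2.78. Of 21 calcium handling genes, 7 rose (33.3%) and 6 fell (28.6%), with a median of 0.05. The luminal binder RCN1 was at -0.56, HRC at -0.53, the release channel ITPR1 at -0.48 and SDF4 at 0.38.

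**Figure D5:**
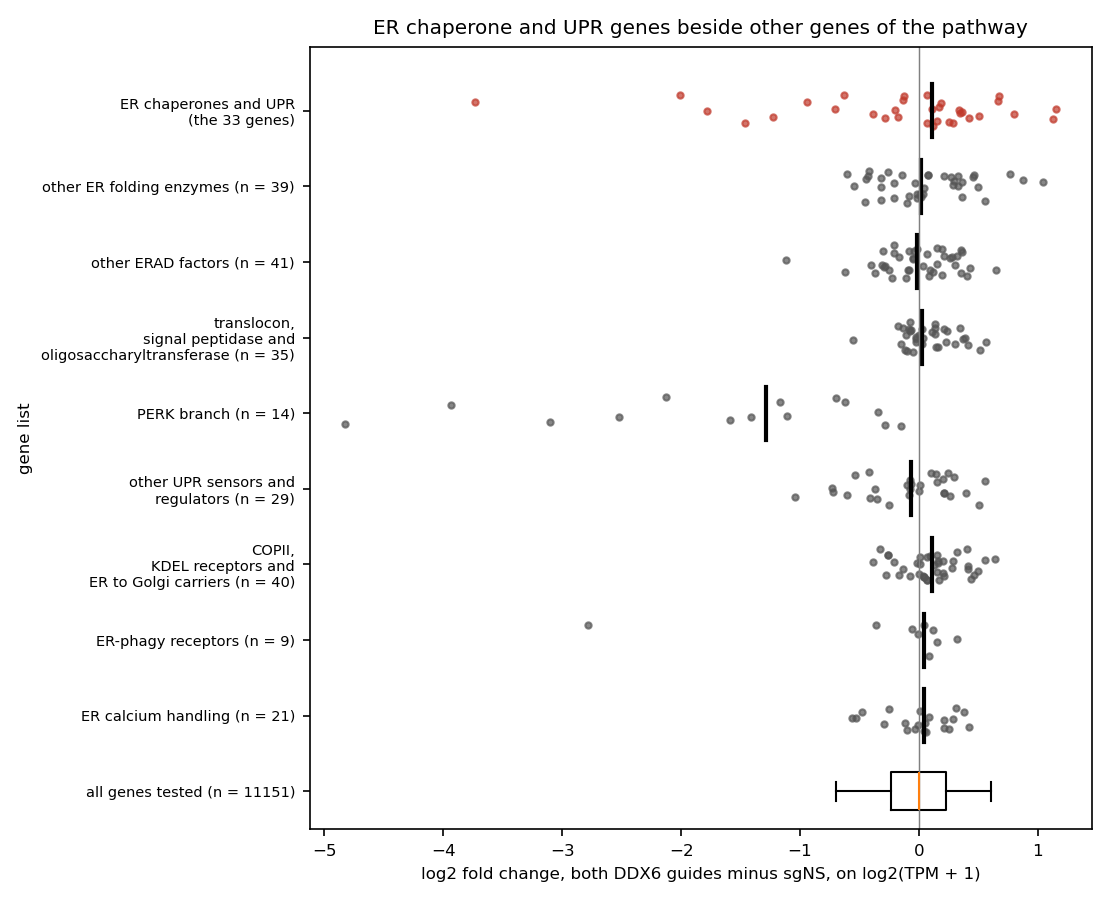
Log2 fold change over both guides (x axis) of the 33 genes, of the 8 lists of other pathway genes (points are genes, black lines medians) and of all 11151 genes tested (box of the quartiles, whiskers at the 5th and 95th percentiles). The 33 genes run from CLGN at -3.73 to CALR at 1.16. The list called the PERK branch, which also holds ATF4 and other stress genes, lies wholly below 0, from -4.82 to -0.15.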

How the data were processed

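Per the labels, poly(A)+ RNA of 6 Mono-mac-6 libraries was measured, 2 each with sgDDX6.1, sgDDX6.2 and sgNS. The authors deposited TPM per gene symbol and library with 2 decimals; RSEM 1.2.31 and the GRCh38 build are named per the submitters' processing notes. Aligner and annotation: not given in the sources used here. Being a share of the library, TPM of other genes falls when abundant genes rise, and depth is unknown; no count interval was given. RSEM divides shared reads by its model.

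From these values log2(TPM + 1) was fitted in limma 3.58.1 (R 4.3.3) with 3 group means, a variance trend and 3 residual degrees of freedom, over 11151 genes with TPM of 1 or more in 2 or more libraries. Each contrast was tested two-sided at an adjusted p (Benjamini-Hochberg, over all genes tested) of 0.05. Fold changes understate the change of low genes. A mean ± SD for sgDDX6 pools both guides. Values in all libraries are given for HSPA5, XBP1, ATF6, ERN1 and genes called with a log2 fold change of 0.5 or more in size, and up to 4 genes with the lowest adjusted p and a mean TPM of at least 5 are named per companion list. EIF2AK3 and the KDEL receptor genes were named after their values were seen. The genes and lists were chosen with earlier results of these data known. Gene positions are from GENCODE release 29 (GRCh38), and promoters from RefSeq (GRCh38.p14). These sources can place a start differently. Matched sites of HSP90B1, CRELD2, CANX, PDIA6 and DNAJC10 are upstream of a RefSeq start site but inside the GENCODE span of the gene. Pseudocounts of 0.1 and 5, no TPM filter and a filter of 5, quantile normalization, median centring, no trend, the replicate number in the model, each library left out, and fits of the compared groups alone were tried. The procedure was tested on simulated data.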

Additional observations from a re-analysis of the deposited data

Results flagged for a closer look

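The 2 DDX6 guides differed by limma's test of the guides against each other (adjusted p under 0.05) in 11 of the 33 genes, and each is given as the log2 difference of sgDDX6.2 minus sgDDX6.1. Higher with sgDDX6.2 were SYVN1 (0.40), EDEM2 (0.34), OS9 (0.31), XBP1 (0.27), CALR (0.24), ATF6 (0.22), PDIA6 (0.13) and PDIA3 (0.12). Lower with sgDDX6.2 were ERN1 (-0.39), EDEM1 (-0.26) and MANF (-0.18). The calls of PDIA3, PDIA6 and MANF were lost when single libraries were left out: without sgDDX6.1 replicate 2 the differences were 0.10, 0.11 and -0.11 (limma adjusted p of 0.0705, 0.0560 and 0.177), and without sgDDX6.2 replicate 2 they were 0.12, 0.14 and -0.12 (adjusted p of 0.0988, 0.0559 and 0.250). Without sgDDX6.2 replicate 1, PDIA3 and PDIA6 had 0.12 and 0.12 (limma adjusted p of 0.114 and 0.0979).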

How the results depend on the processing

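Over both guides the count of genes called stayed between 14 and 17 higher (17 as reported) and between 12 and 14 lower (14 as reported) under 14 alternatives, and counts with single guides, between guides and over the companion genes stayed within 1.5 times the reported ones. Leaving out each library gave 14 to 17 higher and 12 to 14 lower genes. The single reversal among called genes was CANX under quantile normalization, with log2 fold changes of -0.0360 over both guides, -0.0168 with sgDDX6.1 and -0.0553 with sgDDX6.2; the cause was not tested. With the replicate number as a block, 17 genes were higher and 14 lower over both guides, and with single guides 15 and 14 (sgDDX6.1) and 17 and 13 (sgDDX6.2). Between the guides, the block gave 8 higher and 4 lower genes (8 and 3 as reported), against 43.1% of all genes (35.6% as reported). The reported fit did not pair libraries by replicate number. Differences between replicates 1 and 2 correlated across genes at 0.26 between sgDDX6.1 and sgNS, 0.098 between sgDDX6.2 and sgNS and 0.040 between the guides. Whether libraries of one replicate number share a batch was not tested. The share of all genes called over both guides ranged from 47.3% without a TPM filter to 70.5% with the block. Depth is unknown, so no counting error can be given for low genes such as CLGN in sgDDX6.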

Other observations

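The ERSE was also present in the promoter windows of 9 tested genes outside the 33, of which 2 rose, 5 fell and 2 did not pass the test over both guides; they were looked at after their values were seen. Among those that fell were SERP1, which protects membrane proteins during ER stress (177 ± 7.88 TPM in sgDDX6, SD, n = 4, and 212 ± 7.48 TPM in sgNS, SD, n = 2), FICD, which modifies BiP (3.58 ± 0.0750 and 4.65 ± 0.580 TPM), and the disulfide oxidase ERO1B (4.90 ± 0.753 and 6.89 ± 0.0566 TPM). ALG12, a mannosyltransferase of N-glycan assembly, rose, with 14.2 ± 1.35 TPM in sgDDX6 and 9.56 ± 0.467 TPM in sgNS. The ERSE-II was present in 8 tested genes outside the 33, of which 4 rose, among them the calcium-binding NUCB1 (log2 fold change 0.29), and 4 did not pass the test. Beside these counts, 33.8% of all genes tested passed upward and 32.9% downward.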
